A study of Mus musculus with 4 samples.

Results

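Appl2, Ssh2, Zfhx3 and Pkd1 are 4 genes with many called N6-methyladenosine (m6A) sites in at least 1 of 4 libraries from mouse cortex. They were selected on their numbers of listed sites, so those numbers are given as a description and were not tested. The genes account for 62 of 11986 listed sites in named genes, at 56 of 10598 positions, and for 4 of 5526 gene names. Per the labels, each library came from sorted cells of mice with the genotype APOBEC1-YTH, which joins a cytidine deaminase to an m6A-binding domain. The mice were 10 weeks old at the first of 5 daily tamoxifen doses of 20 mg/kg, and tissue was collected 7 days after the last. All groups share this genotype and treatment, and neither the promoter driving the fusion nor the number of animals behind a library is given in the sources used here. ACSA2 was the sorting epitope for astrocytes and CD11b the one for microglia, with 2 libraries labelled for each type. GLORI, the chemistry applied, turns unmethylated adenosine into a base read as G, and the level of a site is the percent of reads that still carry A.

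m6A is placed on messenger RNA by a methyltransferase complex that prefers an adenosine followed by cytosine and preceded by a purine, and it often sits in long internal exons and near stop codons. Proteins with a YTH domain bind it and act on the stability and translation of the transcript. APPL2 is an adaptor of early endosomes that binds Rab5 GTPases and links membrane receptors to signalling. SSH2 is a slingshot phosphatase, which activates cofilin and so promotes the turnover of actin filaments. ZFHX3 is a very large transcription factor with zinc fingers and homeodomains, known for roles in neuronal differentiation and in the circadian clock. Polycystin-1, the product of Pkd1, is a large membrane protein of primary cilia and cell contacts whose loss causes polycystic kidney disease.

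The labels were checked first against marker genes. Of 30 astrocyte markers, 26 were listed in the library labelled astrocyte 1 and 0 in the one labelled microglia 1. Of 30 microglia markers, 2 and 21 were listed there. Both replicate 2 libraries went against their labels, since astrocyte 2 listed 1 astrocyte and 24 microglia markers, and microglia 2 listed 22 and 1. Of 14 oligodendrocyte markers, astrocyte 1 listed 11, microglia 2 listed 9 and the remaining libraries 0. Neuron, endothelial and mural, and border macrophage markers had sites in at most 3 genes of any list and library. Sites in named genes numbered 1066 to 4790 per library, so the 4 genes are also given as a share of them. Depth is unknown, and no site under a level of 10% appears in any table. A gene without a listed site may be unmethylated, methylated below the calling limit, or too little read. In these bulk libraries, fewer cells of a type and less RNA per cell cannot be told apart.

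The sites of the 4 genes fell into 2 patterns across the libraries. Appl2 had 13 sites in the library labelled astrocyte 1 and 7 in that labelled microglia 2, with none in the remaining libraries. Pkd1 had 9 sites in astrocyte 1, 9 in microglia 2, and 1 each in astrocyte 2 and microglia 1. These libraries with most Appl2 and Pkd1 sites are the ones with astrocyte and oligodendrocyte marker sites. Ssh2 had 10 sites in astrocyte 2 and 1 in microglia 1, with none in the remaining libraries. Zfhx3 had 8 sites in astrocyte 2, 2 in microglia 1, 1 in astrocyte 1 and 0 in microglia 2. Most sites of Ssh2 and Zfhx3 thus came from the libraries with microglia marker sites, and chiefly from astrocyte 2. The part of other cell types in either pattern was not tested. As shares of the named-gene sites of microglia 1, Ssh2 and Pkd1 each took 0.094% from 1 site, and Zfhx3 took 0.188% from 2. In the replicate 1 libraries alone, Appl2 stood at 13 sites for astrocytes and 0 for microglia, and Pkd1 at 9 and 1. Ssh2 stood at 0 and 1, and Zfhx3 at 1 and 2. These libraries held 4790 and 1066 named-gene sites. Appl2 took 0.271% of them in astrocyte 1 (exact Clopper-Pearson 95% interval 0.145 to 0.464%) and 0% in microglia 1 (0 to 0.3455%). Pkd1 took 0.188% (0.086 to 0.356%) and 0.094% (0.0024 to 0.5215%). For Ssh2 and Zfhx3 the intervals of these libraries overlapped too. Differences in share were not tested, and these counts alone do not show any.

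**Figure D1:**
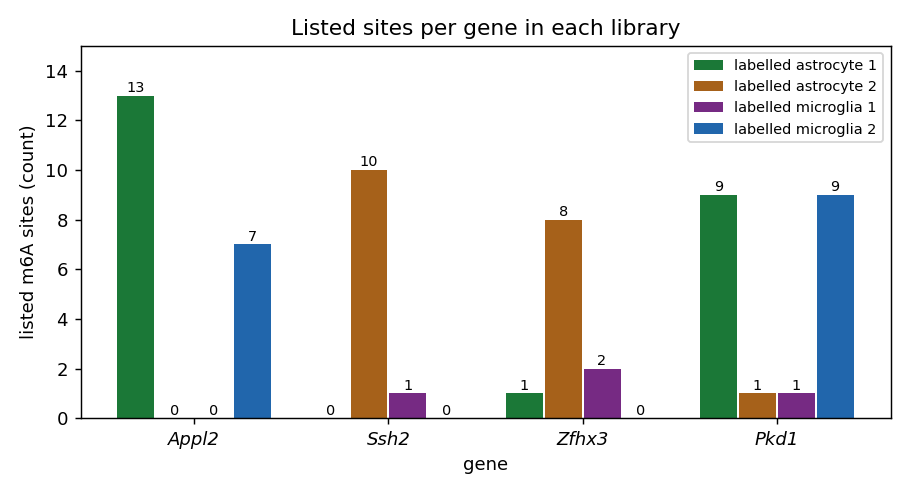
Number of listed m6A sites (vertical axis, count) for each of the 4 genes in each library, with 1 bar per library and its value above it. Appl2 and Pkd1 are tallest in the libraries labelled astrocyte 1 and microglia 2, and Ssh2 and Zfhx3 in the one labelled astrocyte 2.

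Few genes were listed as often. The median gene with a site had 1 site in every library. In astrocyte 1, 1 of 3152 genes had more sites than Appl2 and 9 had more than Pkd1. In microglia 2, 13 of 2609 genes had more than Appl2 and 2 had more than Pkd1. No gene of the 1716 in astrocyte 2 had more than Ssh2, and 4 had more than Zfhx3. As a share of a library's sites in named genes, Ssh2 took 0.426% in astrocyte 2 (exact Clopper-Pearson 95% interval 0.204 to 0.782%), Zfhx3 0.341% (0.147 to 0.670%), Appl2 0.271% in astrocyte 1 (0.145 to 0.464%) and Pkd1 0.238% in microglia 2 (0.109 to 0.451%). These intervals cover counting of sites only. Each gene was selected on these counts and is given in its highest library, so the intervals do not allow for that selection and test nothing. The genes nearest in pattern were named by the Euclidean distance of log2(sites + 1) over the 4 libraries. They were Pcdh9 (distance 0.322) for Appl2, Snx18 (0.874) and Inpp5d (1.05) for Ssh2, Gm32849 (0.737) and Plxdc2 (0.827) for Zfhx3, and Ttyh3 (0.794) and LOC118567340 (1.06) for Pkd1.

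All 62 listings carried the 3-mer GAC or AAC around the methylated base, which are the only 3-mers in the tables. AAC stood at 19 of the 56 positions, 33.9%, against 32.7% of all positions in named genes. By gene, AAC made up 5 of 18 positions in Appl2, 3 of 11 in Ssh2, 5 of 11 in Zfhx3 and 6 of 16 in Pkd1. None of the 62 listings was written in lower case, the usual sign of repeat masking in a genome sequence, against 4.97% of all positions in named genes. The genes did not show 1 common order of levels by 3-mer. In Ssh2 the 3 AAC sites of astrocyte 2 had a median of 83.3% and the 7 GAC sites 42.9%. In Zfhx3 the 5 AAC sites of that library stood at 76.5% and the 3 GAC sites at 100%. Over all named genes of astrocyte 2 the median was 80.0% for either 3-mer. For Appl2 in astrocyte 1 the medians were 20.8% over 4 AAC sites and 20.0% over 9 GAC sites.

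**Figure D2:**
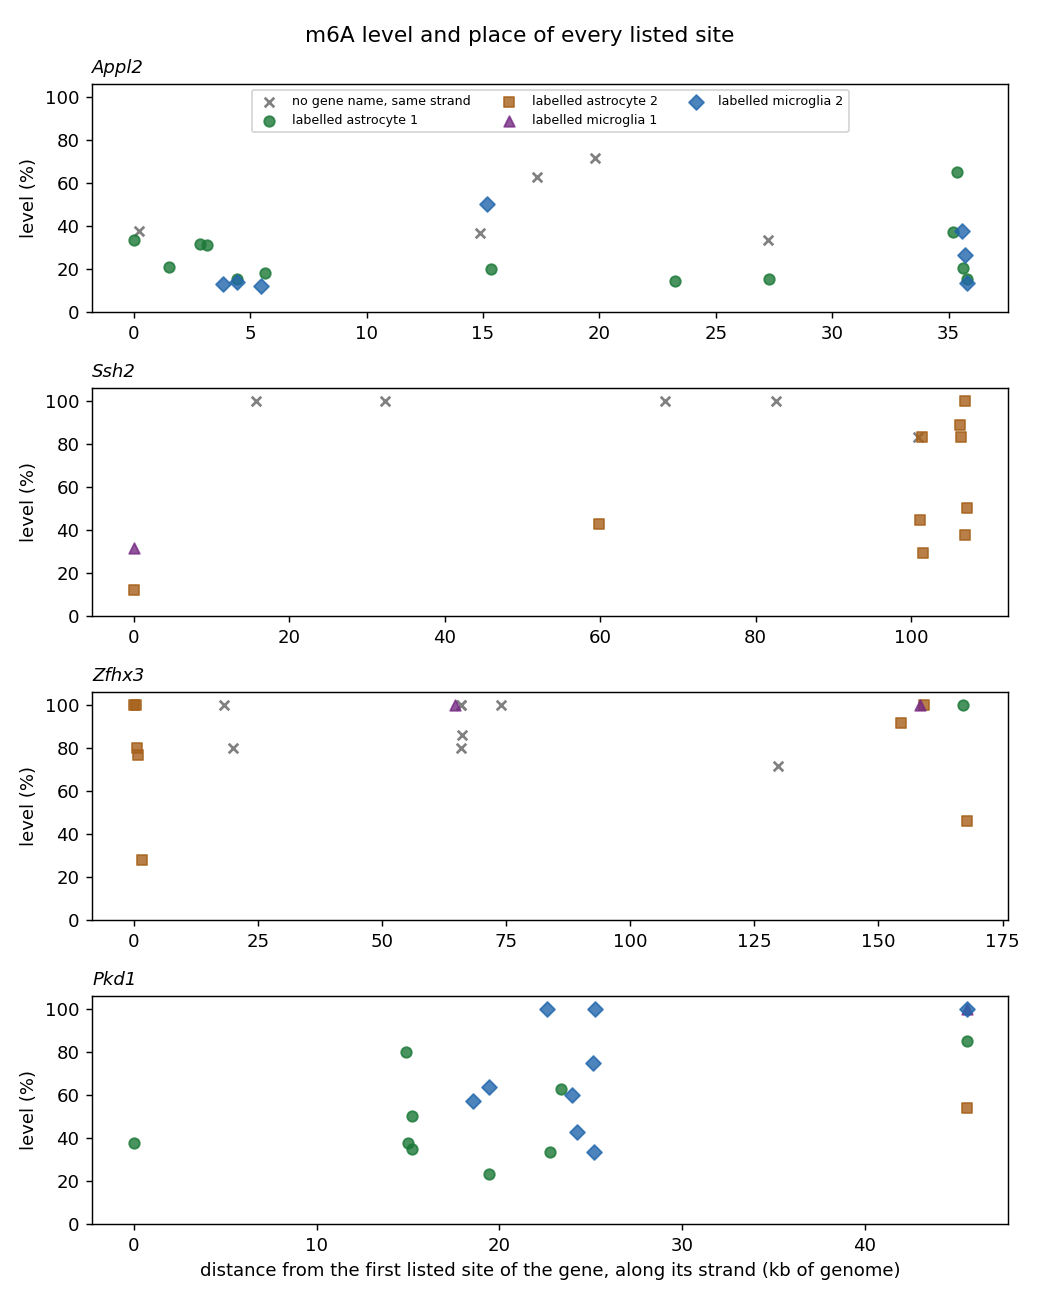
Level of every listed site (vertical axis, percent) against its distance in kb of genome from the gene's first listed site along its strand, 1 panel per gene. Coloured symbols are sites given the gene's name, by library, and grey crosses are sites without a gene name on the same strand. Appl2 sites are spread over the span at mostly low levels, and 8 of 10 Ssh2 sites of the library labelled astrocyte 2 lie in 2 runs near the far end.

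Appl2, the endosome adaptor, lies on the minus strand of chromosome 10 in mm39, and its 18 positions ran from 83471889 down to 83436118, a span of 35771 bases of genome. Its levels were low. In astrocyte 1 the 13 sites ranged from 14.5% to 65.2% with a median of 20.7%, and in microglia 2 the 7 sites ranged from 12.1% to 50% with a median of 13.8%. The medians over all sites in named genes were 66.7% and 58.9% in these libraries. Genes with several sites stood lower than that in general. Among the other genes with 5 or more sites, the median gene stood at 46.4% in astrocyte 1 and 42.9% in microglia 2. Of these, 6 of 91 had a lower median than Appl2 in astrocyte 1, and 1 of 44 in microglia 2. Levels under 20% made up 5 of the 13 and 4 of the 7 Appl2 sites, against 4.18% and 5.24% of all sites in named genes.

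At 2 bases of Appl2 both libraries listed the same adenosine. Position 83467471, an AAC, stood at 15.6% in astrocyte 1 and 13.8% in microglia 2. Position 83436118, a GAC and the last along the strand, stood at 15.6% and 13.6%. Both pairs differed by under 2 points (1.80 and 1.99). The median difference over the 618 named-gene sites these libraries share was 8.46 points, but those sites were not matched to Appl2 by level. Both Appl2 bases stood low, while all named-gene sites had medians of 66.7% in astrocyte 1 and 58.9% in microglia 2. Whether Appl2 levels repeat more closely than those of other sites at like level was not tested. The shared bases were 15.4% of the Appl2 sites of astrocyte 1 and 28.6% of those of microglia 2. Over all named genes, shared sites made up 12.9% of the sites in astrocyte 1 and 16.3% of those in microglia 2. In the 24 other genes with 5 or more sites in both libraries, the shares were 20.5% and 22.4%. Listing mostly different bases was thus common to these libraries and not particular to Appl2. Of the other 5 Appl2 sites of microglia 2, 4 lay within 200 bases of a site in astrocyte 1, at distances from 49 bases. In these stretches both libraries listed sites, mostly at different bases.

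Toward the end of the Appl2 span, astrocyte 1 listed 4 sites within 567 bases. They stood at 37.3% at position 83436684, 65.2% at 83436531, 20.7% at 83436271 and 15.6% at 83436118. The highest Appl2 level of that library thus lay 413 bases from one of its lowest. In the same stretch microglia 2 listed 83436325 at 37.5%, 83436167 at 26.4% and the shared base at 13.6%. The median inside the run was 29.0% in astrocyte 1, against 20.0% over its other 9 sites. Upstream, sites of astrocyte 1 stood at 33.3% (83471889), 20.8% (83470370), 31.6% (83469040) and 31.3% (83468754) over the first 3135 bases. Microglia 2 listed none there and began with 13.1% at 83468071. A pair near the middle, 137 bases apart, stood at 50% in microglia 2 (83456703) and 20.0% in astrocyte 1 (83456566). The remaining sites, 83466258, 83448619 and 83444595 in astrocyte 1 and 83466421 in microglia 2, lay between 12.1% and 18.2%.

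Ssh2, the cofilin phosphatase, lies on the plus strand of chromosome 11, and its 11 positions spanned 107118 bases from 77239256 to 77346374. In astrocyte 2 the 10 sites ranged from 12.1% to 100% with a median of 47.2%, and 6 of 20 other genes with 5 or more sites there had a lower median. The library's median over all named-gene sites was 80.0%. Most of the sites sat close together, with a median gap of 243 bases, shorter than the median gap of each of those 20 genes. The gap was not adjusted for the number of sites, which was highest for Ssh2. The whole span was wide, and only 3 of the 20 genes had a wider one in that library. A first run held 77340428 at 44.4%, 77340667 at 83.3% and 77340733 at 29.4%, within 306 bases. The second held 5 sites within 884 bases, with 88.9% at 77345491, 83.3% at 77345641, 37.5% at 77346121, 100% at 77346131 and 50% at 77346374. The pair 10 bases apart stood at 37.5% and 100%, and the pair at the start of this run, 150 bases apart, at 88.9% and 83.3%. Outside the runs the library listed 77239256 at 12.1% and 77299071 at 42.9%.

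Only 1 Ssh2 site was listed in microglia 1, 77239323 at 31.6%. It lay 67 bases from the first site of astrocyte 2, and no Ssh2 base was listed in 2 libraries. Over all named genes these libraries shared 167 sites, 7.11% of those in astrocyte 2 and 15.7% of those in microglia 1. With 1 Ssh2 site in microglia 1, the lack of a shared base does not set Ssh2 apart. Neither run of astrocyte 2 held a site from another library. Microglia 1 listed the fewest sites in named genes, 1066, against 2348 in astrocyte 2.

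Zfhx3, the homeodomain factor, lies on the plus strand of chromosome 8, and its 11 positions spanned 167745 bases. The 8 sites of astrocyte 2 ranged from 27.7% to 100% with a median of 85.8%, and 18 of 20 other genes with 5 or more sites there had a lower median. The median over all named-gene sites of that library was 80.0%, with 37.9% of them at 100%, against 3 of the 8 Zfhx3 sites. The 2 sites of microglia 1 (109583581 and 109677237) and the 1 of astrocyte 1 (109686022) all stood at 100%. In microglia 1, however, 60.3% of all sites in named genes stood at 100%, and 27.3% in astrocyte 1.

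The first 5 sites of Zfhx3 in astrocyte 2 formed a run of 1592 bases in which no site stood above the one before it along the strand. The level was 100% at 109518953 and 109519395, 80.0% at 109519617, 76.5% at 109519744 and 27.7% at 109520544. The order of these 5 values was noticed in 1 library and has no replicate. After a gap of 153057 bases the library listed 109673601 at 91.7%, 109678137 at 100% and 109686698 at 46.2%. Those positions lay 900 bases or more from any Zfhx3 site of microglia 1, and 676 bases separated the last from the single site of astrocyte 1. No Zfhx3 base was listed in more than 1 library. Of all positions in named genes, 9.72% were listed in 2 or more libraries. With 2 Zfhx3 sites in microglia 1 and 1 in astrocyte 1, the lack of a shared base does not set Zfhx3 apart.

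Pkd1, the polycystin-1 gene, lies on the plus strand of chromosome 17, and its 16 positions spanned 45561 bases from 24769177 to 24814738. Its 9 sites in astrocyte 1 ranged from 23.1% to 85.0% with a median of 37.5%, and the 9 in microglia 2 from 33.3% to 100% with a median of 63.6%. The single sites stood at 53.8% in astrocyte 2 and 100% in microglia 1. Pkd1 took different places among genes with 5 or more sites: 29 of 91 had a lower median in astrocyte 1 and 39 of 44 in microglia 2. The mean of the library medians was 45.7% for the astrocyte label and 81.8% for the microglia label, which is -36.1 points for astrocyte minus microglia (p = 0.333 by an exact permutation test, two-sided, n = 2 and 2). No smaller p is possible with 2 libraries against 2, and both groups hold a library that goes against its label. The difference was -62.5 points between the replicate 1 libraries and -9.79 in replicate 2. Microglia 1 and astrocyte 2 each listed only base 24814738, where the other libraries had 9 sites. These differences, like the -36.1 points, therefore compare different sets of bases. At base 24814738 itself, astrocyte 1 minus microglia 1 was -15 points.

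**Figure D3:**
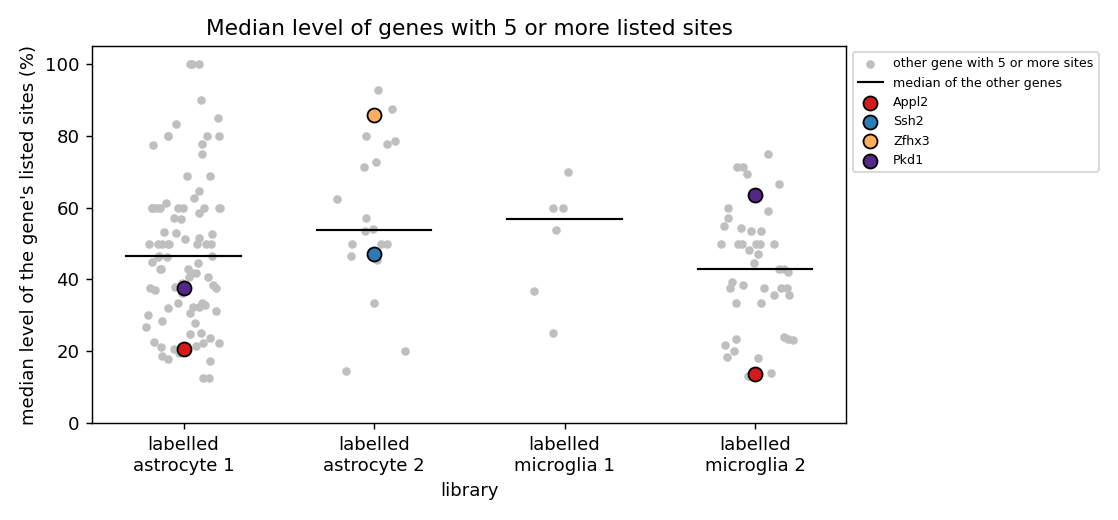
Median level of the listed sites of each gene with 5 or more sites (vertical axis, percent) in each library. Grey points are other genes, spread sideways for sight only, the black line is their median, and large coloured points are Appl2, Ssh2, Zfhx3 and Pkd1 where they had 5 or more sites. Appl2 lies near the bottom in both libraries (20.7% and 13.8%) and Zfhx3 near the top in the one labelled astrocyte 2 (85.8%).

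Each of astrocyte 1 and microglia 2 had a run of Pkd1 sites that the other did not list. Astrocyte 1 had a run of 4 sites within 326 bases, with 80.0% at 24784075, 37.5% at 24784172, 50% at 24784373 and 34.8% at 24784400. No other library had a site inside it. Microglia 2 had a run of 5 sites within 1277 bases, with 60% at 24793162, 42.9% at 24793408, 75.0% at 24794275, 33.3% at 24794350 and 100% at 24794438, and again no other library had a site inside. Between and before the runs, astrocyte 1 listed 24769177 at 37.5%, 24791943 at 33.3% and 24792541 at 62.5%. Microglia 2 listed 24787761 at 57.1% and 24791782 at 100%. Only 1 of the 7 Pkd1 sites that each library did not share lay within 200 bases of a site in the other. For Appl2 it was 3 of 11 in astrocyte 1 and 4 of 5 in microglia 2. The 2 shared bases made up 22.2% of the Pkd1 sites of either library. Over the 24 other genes with 5 or more sites in both libraries, shared bases made up 20.5% of the sites in astrocyte 1 and 22.4% of those in microglia 2.

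Of the 2 repeated Pkd1 bases, 24788593 stood at 23.1% in astrocyte 1 and 63.6% in microglia 2, a difference of 40.6 points. Of the named-gene sites shared by these libraries, 28.6% differed by 20 points or more. Of the 4 bases that the 4 genes contributed, 1 did so. The other base, 24814738, was listed in all 4 libraries, at 85.0% in astrocyte 1, 53.8% in astrocyte 2 and 100% in both microglia libraries. Both astrocyte-labelled values thus lay below both microglia-labelled values. The values did not split in this way by marker sites: the libraries with astrocyte marker sites (astrocyte 1 and microglia 2) stood at 85.0% and 100%, and those with microglia marker sites at 53.8% and 100%. The astrocyte libraries differed from each other by 31.2 points, and 19.7% of their shared named-gene sites differed by 20 points or more. Against either microglia library, astrocyte 2 differed by 46.2 points and astrocyte 1 by 15 points. Differences of 20 points or more were found at 12.3% of the sites that astrocyte 1 shared with microglia 1. For astrocyte 2 the shares were 10.8% against microglia 1 and 22.7% against microglia 2, and between the microglia libraries the share was 13.9%.

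**Figure D4:**
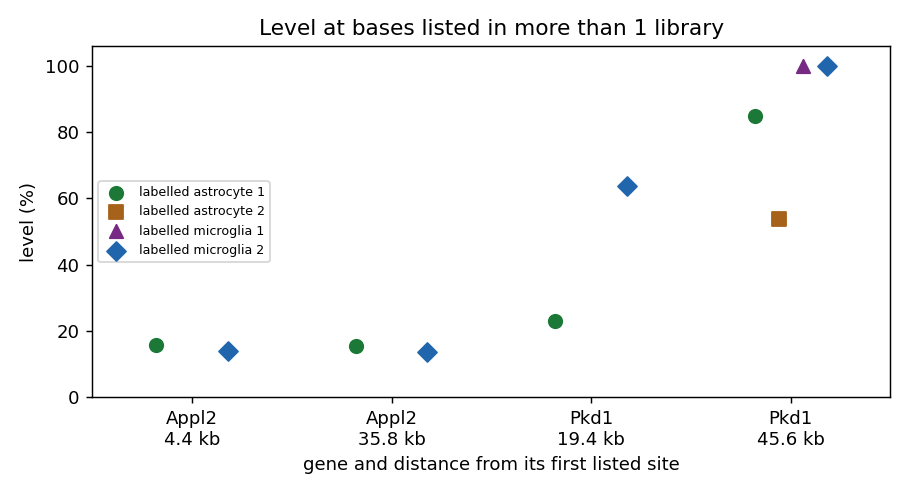
Level (vertical axis, percent) at the 4 bases of these genes listed in more than 1 library, each named by its gene and its distance from the gene's first listed site, with 1 symbol per library. The 2 Appl2 bases lie between 13.6% and 15.6% in both libraries, while the 2 Pkd1 bases range from 23.1% to 63.6% and from 53.8% to 100%.

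Position 24814738 of Pkd1 was the only site of the 4 genes that could enter the test of levels between the labelled types. That test was limma on the log2 odds of the level, over all sites listed in all 4 libraries, and it called 0 of 354 sites, 0.0%, with 16 at an unadjusted p under 0.05. Both labelled groups held a library with astrocyte marker sites and another with microglia marker sites. The test therefore cannot decide whether levels differ between the cell types. At this Pkd1 base the astrocyte minus microglia difference was -5.27 log2 odds (SE 1.005, limma, adjusted p = 0.457), with means of 69.4% and 100%. Over the other alternatives tried the adjusted p lay between 0.250 and 0.999. With replicate numbers crossed as a block, astrocyte 1 with microglia 2, limma called this base (adjusted p = 0.0286), a fit added after the data were seen and not supported by any label. Each crossed block joins libraries that listed markers of the same cell type, so this fit does not compare the marker types. A level of 100% was set to the upper limit of 0.99 before taking log2 odds, and the difference was -2.89 when levels were limited to 0.05 to 0.95. Without either astrocyte library the remaining values left no spread within a type and the site had no test. In the replicate 1 libraries alone the difference was -15 points, with no test.

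Across the 4 genes, 4 of 56 positions (7.14%) were listed in 2 or more libraries, against 9.72% of all positions in named genes. A neighbour within 100 bases in the same library was found for 13 of the 62 listings, 21.0% (exact Clopper-Pearson 95% interval 11.7 to 33.2%). The interval treats listings as independent, which they are not: neighbours come together, and a repeated base counts in each library. Among other genes with 5 or more sites this share lay between 17.0% and 22.9% by library. The sets are unlike, since the 62 listings also hold those of members with 1 or 2 sites in a library. None of the latter had a near neighbour, which lowers the 21.0%. For Appl2 the share was 0 of 13 sites in astrocyte 1 and 2 of 7 in microglia 2, and for Pkd1 4 of 9 and 3 of 9 in these libraries. In astrocyte 2 it was 4 of 10 for Ssh2 and 0 of 8 for Zfhx3. Distances are along the genome, so an intron between sites would lengthen them, and exons, introns and UTRs were not determined here.

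Relatives and partners of the 4 genes were looked up in 4 lists. Of 24 other genes around APPL proteins and early endosomes, 11 had a site and none had more than 3 in a library. They included Sort1, a sorting receptor, with 3 sites in astrocyte 1, 1 in astrocyte 2 and 2 in microglia 2, and Rab31, an endosomal GTPase, with 2 in astrocyte 1 and 2 in microglia 2. Appl1, the close relative of Appl2, had none listed. Of 25 other genes of the slingshot and cofilin pathway 13 had a site, at most 3 in a library. Limk2, a kinase that acts on cofilin in the opposite sense, had 3 in astrocyte 1 and 1 in microglia 2, and neither Ssh1 nor Ssh3 had a listed site.

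Among 14 other zinc finger homeobox factors, 8 had a site. Zeb1, a repressor with roles in epithelial-mesenchymal transition, had 9 in astrocyte 1 and 5 in microglia 2, where Zfhx3 had 1 and 0. Its relative Zeb2 had 1 in astrocyte 1 and 3 in astrocyte 2, and Zfhx4 had 1 each in astrocyte 1 and microglia 2, both at 100%. Of 22 other genes linked to polycystins and to the neighbourhood of Pkd1, 8 had a site. Pkd2, whose product forms a channel with polycystin-1, had 1 each in astrocyte 2 and microglia 2. Tsc1, a brake on mTOR signalling, had 3 in astrocyte 1 and 1 in microglia 2. Of the genes in these 4 lists, Pkd1 alone had a site that could be tested between the labelled types, and 0 passed in either direction.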

How the data were processed

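Each of the 4 libraries has 1 table of called sites. The level in it is a fraction of reads still carrying A, deposited by the authors without coverage, and is printed here as a percent. The caller was GLORI-tools, as the series' design text states, and the submitters' processing notes name STAR and mm39. For versions and calling thresholds, nothing is given in the sources used here. Positions are 1-based in mm39. RefSeq gene names of another build (GRCm38.p6) matched all 4 genes and were used for names and neighbours only. The members and gene lists were chosen with earlier results of these data known. Named genes were the members, genes of the 4 lists with a site, and the 2 genes nearest each member over libraries, of which 1 is not reported here. Levels were tested with limma 3.58.1 in R 4.3.3 on log2 odds, with fractions limited to 0.01 to 0.99 and Benjamini-Hochberg adjustment over 354 sites at 0.05. Sites without spread within types were left out. The code was tested on simulated data. Nothing says that the libraries came from separate animals, so p-values measure only the spread between them. A run is 3 or more sites of a library with gaps of at most 1000 bases, set after the data were seen.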

Additional observations from a re-analysis of the deposited data

How the results depend on the processing

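The count of sites called between the labelled types was 0 under every other setting run than the crossed block below, including the replicate block (0 of 354) and leaving out each library in turn. Since the labelled groups mix libraries by marker sites, these counts do not compare the cell types. A crossed replicate block (astrocyte 1 with microglia 2), added after the data were seen, called 1 of 353 sites. That block joins libraries that listed markers of the same cell type. Replicate numbers were not taken to pair the libraries: deviations of same-numbered libraries correlated at r = -0.07 over 354 sites and -0.11 over the 48 in named genes. The difference in median level of Pkd1 was -36.1 points, which a replicate block cannot change in this balanced design, and between -54.3 and -18.0 points without 1 library. For the other genes the difference has no test and hangs on the summary used. For Appl2 it was 6.88 points, 2.33 with means, and turned to -6.09 with only sites at 20% or above. There the 4 lowest of 7 sites of microglia 2 and 5 of 13 sites of astrocyte 1 drop out. For Ssh2, with 1 site in microglia, it was 15.6 points, 25.6 with means, 12.9 with only sites below 100% and 18.4 at 20% or above. For Zfhx3 it was -7.08 points, -11.1 with means, and between -14.2 and 0.0 without 1 astrocyte library; no value could be had below 100%, since both microglia sites stood at 100%. A block was possible for Pkd1 alone. Repeated bases numbered 4, and 2 at 20% or above, 1 without astrocyte 1 and 1 without microglia 2. The share of listings with a near neighbour was 9.68% at 50 bases and 35.5% at 200 bases. No minimum of coverage could be set, since the tables give none.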

Other observations

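Within the spans of Appl2, Ssh2 and Zfhx3 the tables also list sites to which the authors gave no gene name, all on the strand of the gene. In Appl2 there were 5, of which 4 came from astrocyte 1 and 1 from microglia 2, with levels from 33.3% to 71.4% and a median of 37.5%, and 2 of them were written in lower case. One of these, at 83444665 and 33.3%, lay 70 bases from an Appl2 site of the same library at 15.4%. In Ssh2 there were 5, all from astrocyte 2, and 4 stood at 100%. The fifth, at 77340194 and 83.3%, lay 234 bases before the first run of Ssh2 sites.

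In Zfhx3 there were 6 positions with 8 listings. Position 109584801 was listed without a gene name at 100% in astrocyte 1 and microglia 1 and at 80.0% in microglia 2, which makes it the only base inside the Zfhx3 span seen in more than 1 library. Counted with the named sites, the span held 13 sites in astrocyte 2. Within the Pkd1 span there was no site without a name, but 4 sites bore the name LOC115488769, which overlaps Pkd1 in the RefSeq table of the other build. They stood at 86.7% (24775219) and 20.0% (24775283) in astrocyte 2 and at 37.5% (24779374) and 62.5% (24780795) in astrocyte 1. This gene and these sites were chosen after their values were seen. Tsc2, which also overlaps Pkd1 in that table, had 1 site on the minus strand, at 24815506 and 42.9% in microglia 2, 768 bases from the Pkd1 base listed in all 4 libraries.

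Pcdh9, a protocadherin gene near Appl2 in its pattern over libraries, was not near it in level. It had a median of 46.7% in astrocyte 1 and 57.1% in microglia 2, where Appl2 stood at 20.7% and 13.8%.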
